A study of Homo sapiens with 9 samples.

Results

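Chromosome 19 carries the densest collection of C2H2 zinc finger genes in the human genome. They were examined by poly(A) RNA sequencing in MDA-MB-231, a human triple-negative breast cancer cell line, in 3 groups of 3 libraries. Vehicle cells received DMSO. Erastin-R cells had been treated with erastin and RSL3-R cells with RSL3, and the study describes both as cells that outlived a rising concentration of the drug. Erastin blocks cystine uptake through system xc-, and RSL3 inhibits GPX4, the enzyme that reduces lipid hydroperoxides, so both drugs drive ferroptosis, a death by lipid peroxidation. Each group comes from this 1 line, and the labels do not say whether its 3 libraries were separate cultures, so the p-values below measure only the spread between these libraries. The set was chosen with earlier results of these data known. Its genes were taken by an annotation rule: protein-coding, on chromosome 19, and named ZNF followed by digits only. This gave 240 of the 58735 genes in the deposited tables, 130 on the plus and 110 on the minus strand.

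A C2H2 zinc finger is a short fold held together by a zinc ion between a pair of cysteines and a pair of histidines, and an array of such fingers reads DNA a few bases at a time. Most of these genes also encode a KRAB box at the start of the protein. KRAB binds the co-repressor TRIM28, which brings the histone methyltransferase SETDB1 and the heterochromatin proteins CBX1, CBX3 and CBX5 to the bound site. Many of the genes arose by tandem duplication, and a good part of the described targets are retrotransposons. In the GENCODE 29 proteins, 202 of the 240 genes matched the letter pattern used here for a KRAB box and 3 matched that for a SCAN box (ZNF274, ZNF444 and ZNF446). The number of fingers per protein ranged from 0 to 36 with a median of 12.

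The coding sequence of 1 finger with the linker behind it was compared between some of the genes. It is the first finger in each protein that matched a linker pattern, so the fingers compared need not correspond in position. The genes below are among those with the largest changes in the sections that follow. Capitals mark the linker of 6 codons between consecutive fingers, and the lower-case letters in front of it hold the finger itself with the bases that set its DNA contacts. Sequences are from GENCODE 29 transcripts on GRCh38 and run 5′ to 3′ along the gene.
ZNF93, chr19:19933478-19933558, plus strand: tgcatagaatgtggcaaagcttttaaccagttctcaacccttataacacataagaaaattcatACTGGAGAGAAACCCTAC
ZNF85, chr19:20949124-20949204, plus strand: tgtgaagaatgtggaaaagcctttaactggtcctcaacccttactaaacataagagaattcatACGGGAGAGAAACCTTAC
ZNF100, chr19:21727529-21727609, minus strand: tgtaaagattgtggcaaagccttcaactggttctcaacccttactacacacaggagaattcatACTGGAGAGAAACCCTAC
ZNF480, chr19:52321947-52322027, plus strand: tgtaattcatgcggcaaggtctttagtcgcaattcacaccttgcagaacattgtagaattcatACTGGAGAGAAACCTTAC
ZNF600, chr19:52767102-52767182, minus strand: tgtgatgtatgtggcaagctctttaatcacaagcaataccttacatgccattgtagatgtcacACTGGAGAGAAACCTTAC
ZNF382, chr19:36626789-36626869, plus strand: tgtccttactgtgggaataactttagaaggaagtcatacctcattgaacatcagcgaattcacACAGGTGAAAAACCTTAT
ZNF100 shared 71 of 81 bases with ZNF85 and 69 with ZNF93, and ZNF85 shared 67 with ZNF93. These 3 genes lie in the same cluster near the centromere. ZNF480 and ZNF600, neighbours on the long arm, shared 63. ZNF613, from the same positional group, shared only 49 with ZNF480 and 45 with ZNF600. ZNF382 shared between 48 and 55 bases with each of the other genes compared, among them ZNF613 and ZNF121. Because of this likeness, reads from near-identical stretches could have been assigned to another copy or discarded. Of the words of 50 bases in a gene's transcripts, a median of 4.75% (at most 86.8%) also occurred in another gene, and 54 of the genes tested exceeded 10%.

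Fold changes were taken for the 211 genes with 10 or more counts in at least 3 libraries. Of the other 29, 10 had no count in any library and none exceeded 11 counts. No gene entered the test through 1 group alone, and 198 had 10 or more counts in all 9 libraries. The 240 genes together took between 0.271% and 0.330% of the counts, which totalled 15405102 to 17273464 per library. Levels were low: the median deposited FPKM (fragments scaled to gene length and depth) of the genes tested was 1.69. Of all 240 genes, tested or not, 86 lay under 1 and 28 over 5. Of the line's markers, VIM, AXL, CD44, EGFR, CAV1 and MSN lay at 22.8 FPKM or more in every library, ESR1 and PGR had at most 12 and 2 counts, and CDH1 and EPCAM at most 0.611 and 1.12 FPKM. ERBB2 (5.74 to 9.28 FPKM) and GATA3 (0.914 to 2.05 FPKM) were present. Of the markers of other cells, HBB had no count and CD3E at most 4, PTPRC had 3 to 24 counts, LYZ 2 to 13 and PECAM1 20 to 222. Erastin-R replicate 1 stood apart from the other erastin-R libraries, with a chi-square per degree of freedom of 23.7 and 23.1 against replicates 2 and 3, while every other pair within a group lay between 2.43 and 5.25. Counts and medians of the whole set, and values of several single genes, are given with and without erastin-R replicate 1. Counts by positional group, protein feature or sequence feature, and trend residuals, are given with it only.

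In erastin-R cells the zinc finger genes leaned towards lower levels. By edgeR's quasi-likelihood test with Benjamini-Hochberg adjustment over all 16330 genes tested, 83 of the 211 (39.3%) were lower than in vehicle cells and 30 (14.2%) were higher at an adjusted p under 0.05, against 26.7% lower and 26.9% higher among all genes. The median log2 fold change was -0.24, with -0.00 for all genes. Of changes that also reached 2-fold, 23 were lower and 4 higher (all genes: 6.71% lower and 6.69% higher). Other protein-coding genes of chromosome 19 went the other way, with 144 lower and 275 higher of 748 and a median of 0.16, and the 208 ZNF-numbered genes of other chromosomes had 63 lower, 49 higher and a median of -0.14. Without erastin-R replicate 1, 97 of 210 genes were lower and 34 higher with a median of -0.35 (all genes: 30.7% lower, 30.1% higher).

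In RSL3-R cells the genes did not share that lean. Against the same vehicle libraries 47 (22.3%) were higher and 34 (16.1%) lower, beside 23.6% and 24.7% of all genes, and the median was 0.09 (all genes 0.01). At 2-fold or more 4 were higher and 4 lower (all genes: 6% higher and 4.08% lower). RSL3-R compared directly with erastin-R gave the widest split: 85 (40.3%) were higher and 17 (8.06%) lower, with 22.2% and 26.7% among all genes, and a median of 0.32 against -0.02. At 2-fold or more 18 were higher and 2 lower (all genes: 6.88% higher and 3.5% lower). Among other protein-coding genes of chromosome 19 the same comparison gave 85 higher and 336 lower of 748. The 208 ZNF-numbered genes of other chromosomes leaned the same way as the chromosome 19 set, but less. Of these, 58 (27.9%) were higher and 41 (19.7%) lower, with a median of 0.10, and at 2-fold or more 12 were higher and 2 lower. Leaving out erastin-R replicate 1 gave 109 higher and 21 lower of 210 with a median of 0.42. Calls among all genes rose as well in that refit, to 27.5% higher and 30.5% lower. The 3 comparisons share libraries in pairs, so their counts are not independent of one another.

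**Figure D1:**
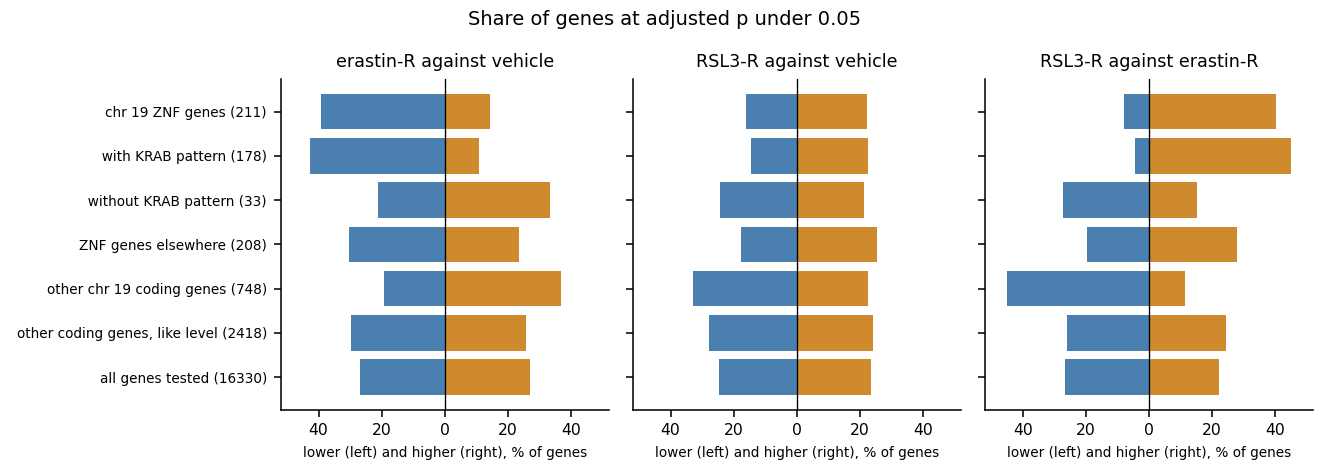
Share of genes at an adjusted p under 0.05 (edgeR) in each comparison, in percent of the genes tested in each class, lower to the left and higher to the right, with the number tested in brackets. The chromosome 19 ZNF genes reach 39.3% lower in erastin-R against vehicle and 40.3% higher in RSL3-R against erastin-R, while other coding genes of the chromosome lean the opposite way in both panels. ZNF genes elsewhere lean the same way as the chromosome 19 ZNF genes in both panels, but less (30.3% lower and 27.9% higher).

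The summed level of the 240 genes followed the same order. In CPM, counts scaled to a common library size after TMM normalisation, it was 2865, 2905 and 2944 in the vehicle libraries, 2978, 2666 and 2667 in erastin-R and 3291, 3205 and 3164 in RSL3-R. RSL3-R libraries lay above all others, and erastin-R replicate 1 lay above the vehicle range while the other 2 lay below it. For each library the median difference from the vehicle mean was also taken over the 211 genes tested, in log2 CPM. It was -0.14, -0.32 and -0.33 in the erastin-R libraries, -0.02 to 0.01 in vehicle, and 0.06 to 0.13 in RSL3-R. Over all genes the library medians lay between -0.008 and 0.004. The zinc finger medians of erastin-R thus lay below those of vehicle, whose libraries were measured from their own mean. Single genes could still overlap between these 2 groups, as ZNF146 and ZNF91 did. Replicate 1 was the highest of the 3 erastin-R libraries for 52 of the 83 lower genes. Markers moved with these groups in part. PECAM1 (endothelial) had 9.49 to 10.9 CPM in vehicle, 1.27 to 2.14 in erastin-R and 11.6 to 13.8 in RSL3-R, and PTPRC (immune) 0.25 to 0.65, 0.18 to 0.65 and 1.22 to 1.49. Of the epithelial genes, KRT18 had 165 to 173 CPM in vehicle, 69.4 to 87.6 in erastin-R and 158 to 181 in RSL3-R, and CDH1 0.863 to 1.66, 0.381 to 1.21 and 3.21 to 3.80. KRT8 fell in both drug groups, from 299 to 310 CPM in vehicle to 142 to 164 in erastin-R and 171 to 183 in RSL3-R. KRT19 passed in no comparison. Of the line's own markers, CAV1 (log2 fold changes of -1.14 and -0.86) and CD44 (-0.15 and -0.43) fell in both. AXL (0.58 and 0.40) and EGFR (0.26 and 0.78) rose in both, and VIM and MSN did not pass against vehicle. HBB had no counts, CD3E reached at most 0.246 CPM and LYZ 0.801 CPM. Their part in the result was not tested. In bulk RNA, fewer cells with a transcript and less transcript per cell cannot be told apart.

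**Figure D2:**
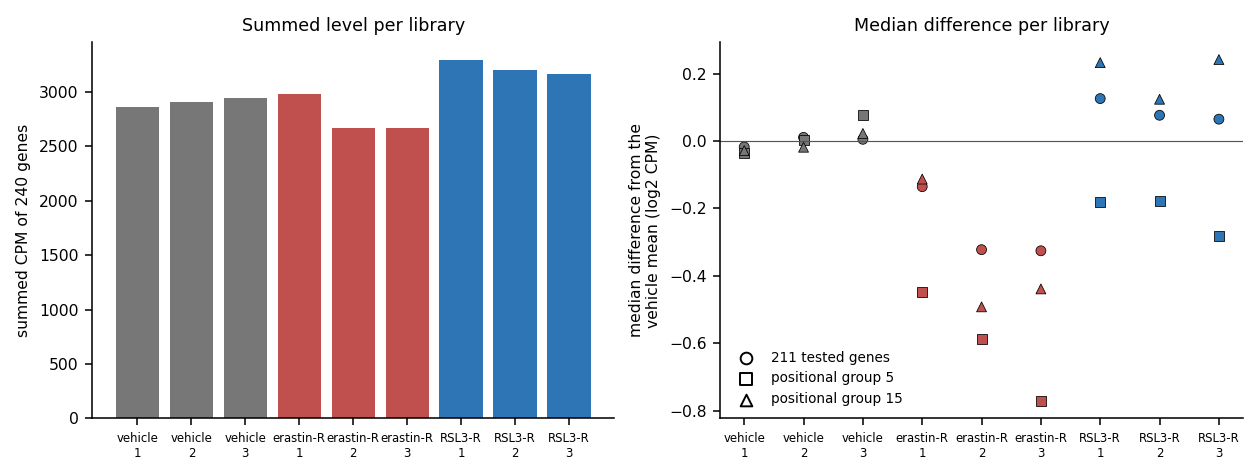
Left, summed CPM of the 240 genes in each library (bars from 0). Right, median difference from the vehicle mean in log2 CPM for the 211 genes tested (circles), positional group 5 (squares) and positional group 15 (triangles), where erastin-R replicate 1 lies nearer to vehicle than replicates 2 and 3 in each series.

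Position along the chromosome, which played no part in choosing the genes beyond the chromosome itself, separated them into clusters with different behaviour. Splitting wherever neighbouring starts lay more than 1 Mb apart gave 16 groups, and 7 of them, with at least 10 genes tested each, held 195 of the 211. Their counts stand beside 26.7% lower and 26.9% higher among all genes in erastin-R. In RSL3-R the shares of all genes were 24.7% lower and 23.6% higher, and between the drugs 26.7% lower and 22.2% higher. The group from 19668796 to 24129961 (group 5, GRCh38), on the short arm beside the centromere, holds 37 genes, 27 of them tested, and all 27 had a negative log2 fold change in erastin-R. Of these, 18 were lower at an adjusted p under 0.05, 8 of them by 2-fold or more, none was higher, and the median was -0.69. In RSL3-R 8 (29.6%) were lower, a share near that of all genes, 3 (11.1%) were higher and the median was -0.29. RSL3-R against erastin-R gave 10 higher, 1 lower and 0.43. Its 10 untested genes include ZNF208, ZNF257, ZNF676 and ZNF98, and the median difference from the vehicle mean was -0.45, -0.59 and -0.77 in the erastin-R libraries and -0.18, -0.18 and -0.28 in RSL3-R.

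Group 15, from 51571298 to 53580269 on the long arm, holds 39 genes with 36 tested and had the largest median difference between the drugs among the 7. In erastin-R 19 were lower and 4 higher (median -0.38), in RSL3-R 4 were lower and 13 higher (median 0.15), and directly compared 28 of 36 were higher in RSL3-R and none lower (median 0.58). In group 3, from 11483427 to 12640098, 11 of 23 (47.8%) were lower in erastin-R and none higher (median -0.51). In RSL3-R 5 (21.7%) were lower and 1 (4.35%) higher, beside 24.7% and 23.6% of all genes. The large group at the end of the long arm (group 16, 55476332 to 58481230, 52 tested) was mixed, with 18 lower and 14 higher in erastin-R and 6 lower and 14 higher in RSL3-R. Groups 2, 9 and 12 had medians of 0.13, 0.03 and -0.15 in erastin-R. Groups 3 and 15 hold few other tested coding genes. The 2 within group 3 had positive log2 fold changes in erastin-R, where 1 passed the test. Of the 3 within group 15 none passed in erastin-R, and 2 were lower in RSL3-R than in vehicle (median of the 3 -0.37) and 2 lower than in erastin-R (median -0.68). Groups 2, 12 and 16 are interspersed with 30, 20 and 22 such genes, whose medians in erastin-R were 0.46, 0.19 and -0.28. The 6 within group 9 had medians of -0.12 in erastin-R, 0.46 in RSL3-R and 0.37 between the drugs. Group 5 holds no other tested coding gene to set beside its zinc finger genes.

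**Figure D3:**
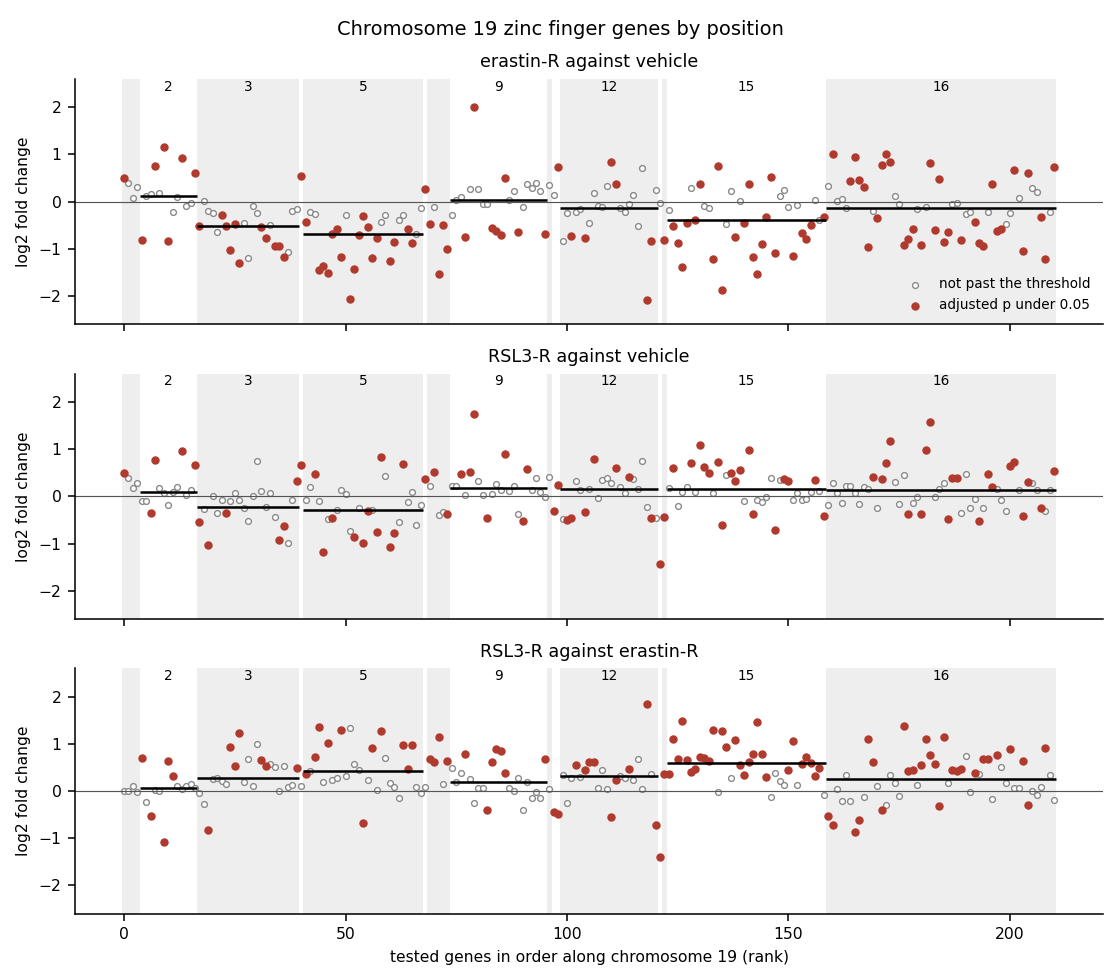
Log2 fold change of each of the 211 genes tested, in rank order along chromosome 19, for the 3 comparisons. Filled points passed an adjusted p under 0.05, shading marks alternate positional groups, black lines are medians of the 7 numbered groups with at least 10 genes tested, and in the top panel every point of group 5 lies below 0.

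Among single genes, the strongest losses in erastin-R lay in several clusters. ZNF480 (chr19:52297177-52325922) measured 23.0, 27.4 and 28.7 CPM in vehicle, 11.1, 5.21 and 5.04 in erastin-R and 16.1, 17.2 and 18.7 in RSL3-R. The 3 groups did not overlap, with RSL3-R between the others. Its log2 fold change was -1.88 ± 0.22 (SE, adjusted p = 8.07e-06, edgeR) in erastin-R and -0.60 ± 0.20 in RSL3-R (adjusted p = 0.0249), a call lost in 6 of 17 alternatives to the processing. ZNF600 (chr19:52749942-52786807) fell from 24.8, 24.4 and 22.9 CPM to 9.75, 6.35 and 8.62 in erastin-R, a log2 fold change of -1.54 ± 0.13 (adjusted p = 4.37e-07), and its RSL3-R values of 21.2, 24.8 and 22.7 overlapped with vehicle. ZNF613 (chr19:51927147-51948759) showed the same shape, with 4.70, 5.74 and 4.37 CPM in vehicle, 2.08, 1.72 and 1.82 in erastin-R and 5.15, 5.40 and 5.31 in RSL3-R, and differed by 1.49 ± 0.18 between the drugs (adjusted p = 1.59e-05). All 3 genes lie in group 15.

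ZNF112 (chr19:44326555-44367217), in group 12, measured 4.76, 5.0 and 5.48 CPM in vehicle, 2.14, 0.83 and 0.61 in erastin-R and 4.25, 4.22 and 4.55 in RSL3-R. Its log2 fold change in erastin-R was -2.07 ± 0.31 (adjusted p = 6.6e-05, edgeR) and -2.81 without replicate 1, and 10.4% of its words were shared, mostly with AC245748.1, an overlapping gene on the same strand. ZNF66 rests on few reads: 24, 28 and 20 counts in vehicle, 13, 1 and 3 in erastin-R and 17, 10 and 16 in RSL3-R, and its log2 fold change of -2.06 ± 0.53 (adjusted p = 0.00489) became -3.48 without replicate 1. ZNF599, on the long arm in group 8, had 1.91, 2.59 and 2.90 CPM in vehicle and 0.59, 1.33 and 0.61 in erastin-R (-1.54 ± 0.34, adjusted p = 0.00172). ZNF547, in group 16, was lower in erastin-R by -0.91 ± 0.28, a call lost without vehicle replicate 3 (adjusted p = 0.088) or without erastin-R replicate 3 (adjusted p = 0.0581), and higher by 1.37 ± 0.28 in RSL3-R than in erastin-R.

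Several genes fell in both drug groups, in group 5 and elsewhere. In group 5, ZNF93 (chr19:19900913-19963464), which represses LINE-1 elements of the primate lineage, measured 14.3, 15.9 and 16.8 CPM in vehicle, 7.85, 5.40 and 4.85 in erastin-R and 7.79, 6.33 and 6.71 in RSL3-R. Both drug groups lay below vehicle and overlapped with each other, with log2 fold changes of -1.37 ± 0.16 (adjusted p = 9.18e-06, edgeR) and -1.17 ± 0.16 (adjusted p = 3.95e-05). ZNF100 (chr19:21722766-21767628) went from 11.4, 13.0 and 14.9 CPM to 6.90, 5.02 and 4.55 in erastin-R and 6.24, 6.20 and 6.06 in RSL3-R, log2 fold changes of -1.25 ± 0.16 and -1.08 ± 0.16. ZNF85 (chr19:20923222-20950697) went from 6.25, 7.59 and 9.12 CPM to 3.87, 2.29 and 2.31 in erastin-R and 5.15, 3.72 and 3.85 in RSL3-R, log2 fold changes of -1.43 ± 0.23 and -0.85 ± 0.21. Both comparisons passed the test for each of these 3 genes and share the vehicle libraries. Without erastin-R replicate 1, ZNF93 was also higher in RSL3-R than in erastin-R, by 0.43 (adjusted p = 0.0207), and so was ZNF85, by 0.88 (adjusted p = 0.00196).

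ZNF91 (chr19:23304991-23395560), the repressor of SVA retrotransposons, lies in the same group 5 and differed in pattern. Its values were 15.4, 17.9 and 18 CPM in vehicle, 17.1, 13.2 and 11.6 in erastin-R and 27.9, 27.7 and 26.7 in RSL3-R. The RSL3-R libraries lay above all others and the rise of 0.68 ± 0.12 passed the test (adjusted p = 0.000424, edgeR), as did the difference of 0.97 ± 0.13 from erastin-R. Erastin-R overlapped with vehicle (-0.29 ± 0.13, adjusted p = 0.0739), and without replicate 1 it passed (-0.46, adjusted p = 0.00087).

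Single genes rose as well. ZNF382 (chr19:36604817-36634113), described as a repressor that carcinomas silence by promoter methylation, measured 2.92, 3.39 and 2.22 CPM in vehicle, 12.5, 10.8 and 10.7 in erastin-R and 9.79, 9.49 and 9.21 in RSL3-R. The log2 fold changes of 1.99 ± 0.16 (adjusted p = 1.8e-07, edgeR) and 1.74 ± 0.16 (adjusted p = 8.3e-07) correspond to 3.98-fold and 3.33-fold. ZNF121 (chr19:9560353-9584533), a MYC-binding zinc finger protein, rose in both by 0.92 ± 0.07 and 0.97 ± 0.07, from 48.7, 49.9 and 55.3 CPM to 105, 94.9 and 90.8 and to 103, 99.4 and 98.7. No drug-treated library of either gene overlapped with vehicle. ZNF699 (chr19:9294275-9309838) rose in erastin-R alone of the 2 drugs, from 16.4, 15.8 and 14.8 CPM to 36.6, 34.6 and 33.9, with 18.5, 15.8 and 15.2 in RSL3-R, and the difference between the drugs was -1.09 ± 0.10 (adjusted p = 8.81e-07). ZNF805 (1.01 ± 0.17) and ZNF579 (1.0 ± 0.14) were the other genes with the largest rises in erastin-R.

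In RSL3-R the largest rises were those of ZNF382, ZNF773 (1.58 ± 0.27, at only 0.68 to 1.25 CPM in vehicle), ZNF460 (1.18 ± 0.16) and ZNF432 (1.09 ± 0.10). ZNF432 (chr19:52031379-52095738) had 19.9, 24.6 and 22.7 CPM in vehicle, 31.7, 29.1 and 25.8 in erastin-R and 51.4, 45.7 and 45.6 in RSL3-R, 3 ranges that did not overlap. Its exons overlap those of ZNF841, which was higher in RSL3-R by 0.62 ± 0.11, on the same strand. The largest fall was that of ZNF114 (chr19:48270102-48287608), a gene with only 3 fingers, from 12, 12.1 and 12.9 CPM to 4.51, 4.22 and 5.01 in RSL3-R (-1.43 ± 0.14, adjusted p = 1.28e-06, edgeR), while erastin-R with 13.7, 11.9 and 10.6 overlapped with vehicle. ZNF114 and ZNF699 thus had differences between the drugs of similar size (-1.39 ± 0.14 and -1.09 ± 0.10) from opposite sides. ZNF823 fell in RSL3-R as well, by -1.03 ± 0.21 (adjusted p = 0.000994), and stood at 4.64, 5.12 and 3.82 CPM in vehicle, 3.81, 3.94 and 4.13 in erastin-R and 2.38, 2.67 and 1.63 in RSL3-R.

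**Figure D4:**
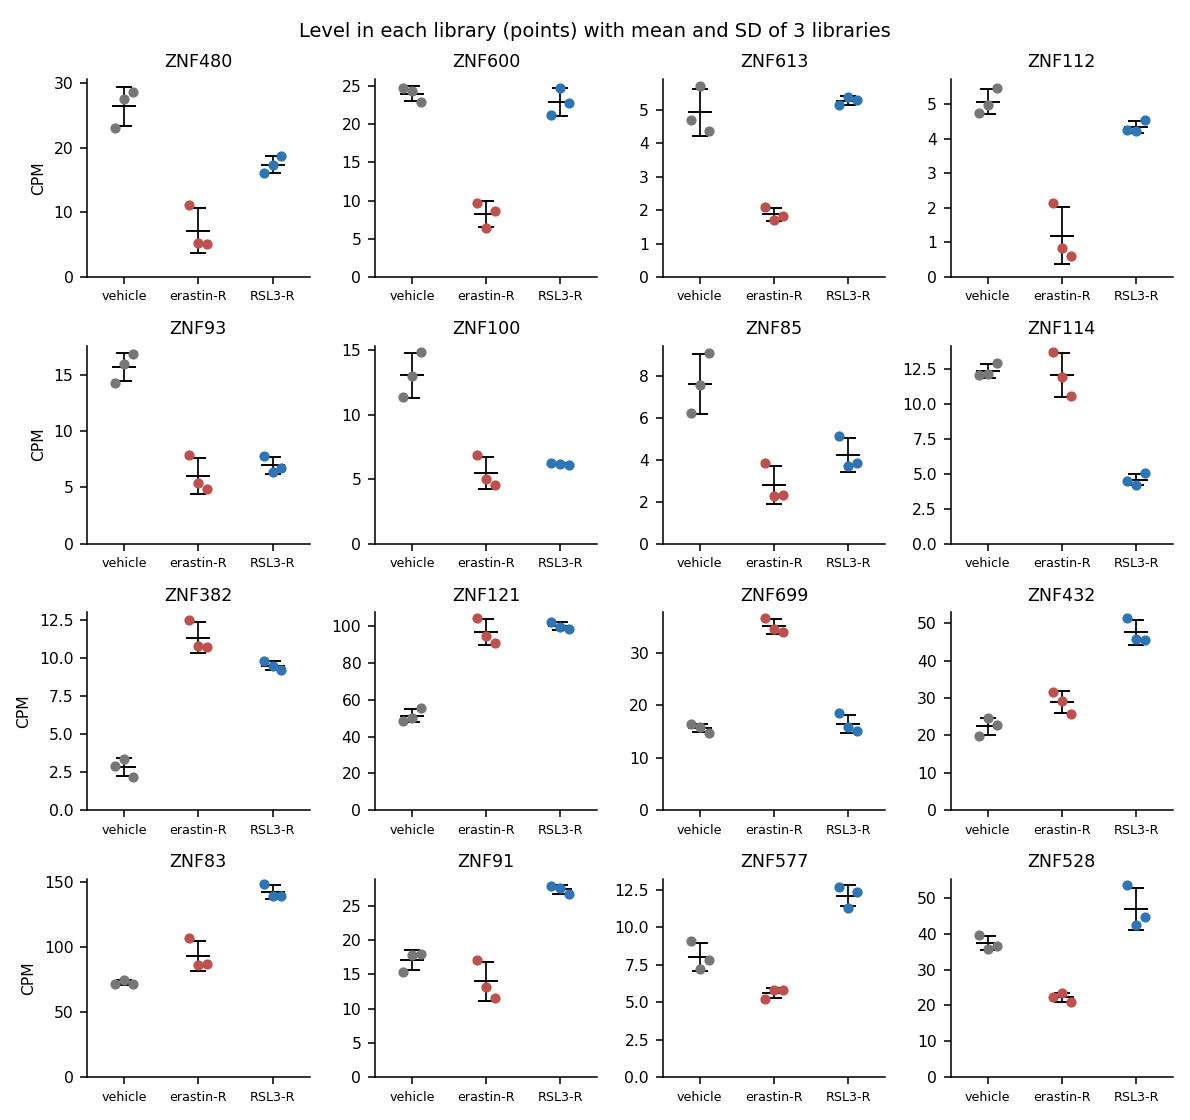
Level of 16 genes in every library, in CPM, with the mean and SD of 3 libraries (axes start at 0). ZNF480, ZNF600, ZNF613 and ZNF112 are lowest in erastin-R, ZNF93, ZNF100 and ZNF85 are low in both drug groups, ZNF382 and ZNF121 are high in both, and ZNF577 and ZNF528 lie on opposite sides of vehicle.

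The 5 most abundant genes per length moved in different ways. By mean deposited FPKM the order was ZNF146 (32.1), ZNF841 (13.0), ZNF83 (12.7), ZNF581 (11.7) and ZNF121 (11.3). ZNF146, a protein made of little besides its fingers, had 120, 127 and 133 CPM in vehicle, 161, 116 and 110 in erastin-R and 151, 144 and 148 in RSL3-R. Its erastin-R value turned on 1 library, with a log2 fold change of 0.03 ± 0.11 (adjusted p = 0.859, edgeR) over all libraries and -0.16 ± 0.05 without replicate 1 (adjusted p = 0.0105). ZNF841 lay between -0.27 and 0.03 in erastin-R over 17 alternatives to the processing, of which 1 changed its call. ZNF83 (chr19:52594060-52690496) rose from 71.3, 74.7 and 71.8 CPM to 106.9, 86.2 and 87.5 in erastin-R and 148.8, 139.7 and 139.8 in RSL3-R, without overlap (0.37 ± 0.08 and 0.98 ± 0.08). ZNF581 went from 16.8, 16.3 and 13.3 CPM to 23.7, 31.5 and 34.2 in erastin-R and 14.5, 17.2 and 17.0 in RSL3-R (0.94 ± 0.14 in erastin-R, adjusted p = 5.87e-05), with 18.4% of its words shared with the overlapping ZNF580.

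Genes with a described role moved in different directions. ZNF274, which recruits SETDB1 to the 3′ ends of zinc finger genes, did not pass the test in any comparison (0.08 ± 0.08 in erastin-R, 0.14 ± 0.08 in RSL3-R). ZNF568, whose mouse counterpart represses a placental Igf2 transcript, rose in both drug groups (0.50 ± 0.15 and 0.89 ± 0.15), the erastin-R call being lost without vehicle replicate 2 (0.43, adjusted p = 0.0544, edgeR). ZNF224, a partner of WT1, rose in both as well (0.36 ± 0.10 and 0.60 ± 0.09), but 40.5% of its exons overlap the antisense gene AC021092.1, and reads of the 2 cannot be told apart where strand was not used in counting. ZNF808, needed for pancreas development, rose in RSL3-R (0.56 ± 0.15) and had 0.00 ± 0.15 in erastin-R. ZNF331 fell in both (-0.33 ± 0.08 and -0.41 ± 0.08) and ZNF649 in erastin-R (-0.87 ± 0.22). ZNF417 and ZNF587, near-identical copies that repress HERV-K elements and share 37.7% and 35.5% of their words, went apart in erastin-R (-0.61 ± 0.16 and 0.36 ± 0.07), which such copies make uncertain.

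Protein and sequence features were set beside the counts. Among all genes 26.7% were lower and 26.9% higher in erastin-R, and 22.2% were higher and 26.7% lower in RSL3-R than in erastin-R. Of 178 tested genes with the KRAB pattern, 76 were lower and 19 higher in erastin-R (median -0.28), and 80 were higher and 8 lower in RSL3-R than in erastin-R (median 0.38). The 33 without it, among them ZNF146, ZNF579 and ZNF581, had 7 lower and 11 higher in erastin-R (median 0.14), and 5 higher and 9 lower between the drugs (median -0.04). Base composition moved with this feature, since median GC content was 42.0% with the pattern and 59.6% without. Split by GC, the 182 genes under 50% had 78 lower and 23 higher in erastin-R and the 29 others 5 lower and 7 higher. After subtraction of the trend of other coding genes in level, GC content and length, described next, residual medians in erastin-R were -0.19 with the KRAB pattern and -0.15 without, and -0.19 under 50% GC and -0.18 above, and between the drugs they were 0.22 with the KRAB pattern and 0.19 without. Of the 110 genes with up to 12 fingers 46 were lower and 21 higher in erastin-R (median -0.25, 8 lower by 2-fold or more), and of the 101 with more 37 were lower and 9 higher (median -0.23, 15 lower by 2-fold or more). Among the 157 genes sharing at most 10% of their words with another gene 64 were lower and 19 higher in erastin-R, and among the 143 with no antisense exon overlap 62 were lower and 20 higher.

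Because these genes are poor in GC and low in level, their values were set beside the trend of other genes. A smooth trend in level, GC content and gene length, fitted on the other protein-coding genes tested, gave the zinc finger genes fitted medians of -0.12 in erastin-R, 0.03 in RSL3-R and 0.17 between the drugs, and left residual medians of -0.18, 0.05 and 0.20. In erastin-R 134 residuals were negative and 77 positive, and between the drugs 143 were positive and 68 negative. The trend thus took up part of the shift, and in group 5 the erastin-R residual median was -0.54 and in group 15 it was -0.28. With the GC and length trend removed from each library before testing, 83 genes were lower and 36 higher in erastin-R (all genes: 28.5% lower and 28.6% higher), and 77 were higher and 19 lower between the drugs (all genes: 21.2% higher and 31.0% lower). Among 2418 other coding genes of like level (4.32 to 17.3 CPM, the middle range of the zinc finger genes) 29.9% were lower and 25.8% higher in erastin-R.

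The start regions of these genes share letters as well. RefSeq windows of 300 bases (250 before and 50 after the start, GRCh38.p14) were found for 209 of the 240 genes. CCGGAAG, the core bound by ETS factors, read on both strands, stood in 39.1% of their 256 windows, in 31.0% of those of ZNF-numbered genes elsewhere and in 10.3% of all 35116 windows. CCAAT, bound by NF-Y and likewise read on both strands, stood in 48.0% against 34.6% of all windows, and TATAAA in 2.73% against 11.5%. Windows of ZNF-numbered genes elsewhere lay between, with 40.3% for CCAAT and 5.81% for TATAAA. TGATGCAA, an ATF4 element, stood in 0.391% against 0.866% of all windows, and TGACGTCA, a cyclic AMP element, in 3.13% against 1.85%. The zinc finger windows were richer in CpG dinucleotides than all windows (median 20 against 14). CCGGAAG holds a CpG and TATAAA does not, and the shares were not adjusted for base composition. Windows of genes lower in erastin-R held CCGGAAG in 42.5% and CCAAT in 58.6%, those of the other genes tested in 36.9% and 41.8%. Below are the 250 bases before the start of ZNF93 and ZNF100, which fell in both drug groups, and of ZNF528, which lay on opposite sides of vehicle, with each CCAAT or CCGGAAG, or its reverse complement, in capitals.
ZNF93, chr19:19900696-19900945, plus strand: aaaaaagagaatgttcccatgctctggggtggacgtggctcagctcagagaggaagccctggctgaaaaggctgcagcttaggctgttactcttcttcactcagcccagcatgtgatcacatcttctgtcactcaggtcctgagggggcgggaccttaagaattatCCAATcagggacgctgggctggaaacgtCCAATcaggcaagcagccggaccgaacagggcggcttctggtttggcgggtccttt
ZNF100, chr19:21767580-21767829, minus strand: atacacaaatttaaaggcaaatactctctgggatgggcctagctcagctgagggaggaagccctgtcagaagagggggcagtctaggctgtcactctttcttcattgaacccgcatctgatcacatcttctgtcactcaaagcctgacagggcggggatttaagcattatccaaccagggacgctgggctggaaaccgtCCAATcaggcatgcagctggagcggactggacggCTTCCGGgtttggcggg
ZNF528, chr19:52397599-52397848, plus strand: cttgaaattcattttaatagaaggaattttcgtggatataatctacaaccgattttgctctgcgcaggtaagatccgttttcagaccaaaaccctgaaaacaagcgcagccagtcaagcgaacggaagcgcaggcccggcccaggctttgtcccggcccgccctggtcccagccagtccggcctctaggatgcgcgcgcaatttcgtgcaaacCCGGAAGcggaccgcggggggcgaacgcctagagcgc
ZNF93 holds CCAAT at 2 places and ZNF100 at 1, both in like surroundings, and ZNF100 also holds the ETS core. ZNF528 holds 1 ETS core and no CCAAT here, among 23 CpG dinucleotides, whereas the other 2 have 8 each. These matches describe letters and were not tested as binding sites.

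Co-repressors through which KRAB proteins act were measured beside them, in a list with other chromatin genes. That list also holds DNA methylation genes, other histone methyltransferases and the KDM4 demethylases. Its counts and medians thus pool genes of unlike function. Of its 32 genes, 6 were higher and 12 lower in erastin-R (all genes: 26.9% higher, 26.7% lower). In RSL3-R 5 were higher and 13 lower (all genes: 23.6% and 24.7%), and between the drugs 8 were higher and 14 lower (all genes: 22.2% and 26.7%). Their medians were -0.10, -0.11 and -0.16. TRIM28 itself, in vehicle at 472, 465 and 456 CPM, had 391, 576 and 565 in erastin-R and 304, 329 and 313 in RSL3-R. It fell in RSL3-R (-0.56, adjusted p = 0.000827, edgeR), below all other libraries, and was not called in erastin-R, where replicate 1 lay below and the others above vehicle (0.14, adjusted p = 0.305). Without replicate 1 it was higher in erastin-R, by 0.30 (adjusted p = 5.31e-07, edgeR). SETDB1 rose in erastin-R (0.51, and 0.34 without replicate 1), and the heterochromatin proteins CBX1 (-0.63) and CBX3 (-0.52) fell in RSL3-R. The histone methyltransferases EHMT2 (-0.81), SUV39H1 (-1.14) and SUV39H2 (-0.59) fell in RSL3-R, and only SUV39H2 of the 3 was lower in erastin-R at the threshold (-0.55). UHRF1, which guides DNA methylation to newly copied DNA, fell in both (-1.65 and -1.78), and its partner DNMT1 fell in both too (-0.46 and -0.77). Of the HUSH silencing complex and its partners, MPHOSPH8 fell in erastin-R (-0.70) and rose in RSL3-R (0.38), a call lost with 6 of the 9 libraries left out in turn (adjusted p up to 0.0947, edgeR), and the difference between the drugs was 1.08 (adjusted p = 2.37e-05), and MORC2 rose in both (0.65 and 0.46). HDAC1 fell in both drug groups (-0.87 in erastin-R and -0.46 in RSL3-R). The demethylase KDM4C (-0.53) fell in erastin-R, where the methyltransferase DNMT3B rose (0.75). RBBP7 fell in both (-0.33 and -0.70), and KDM4A was higher in RSL3-R than in erastin-R (0.59).

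**Figure D5:**
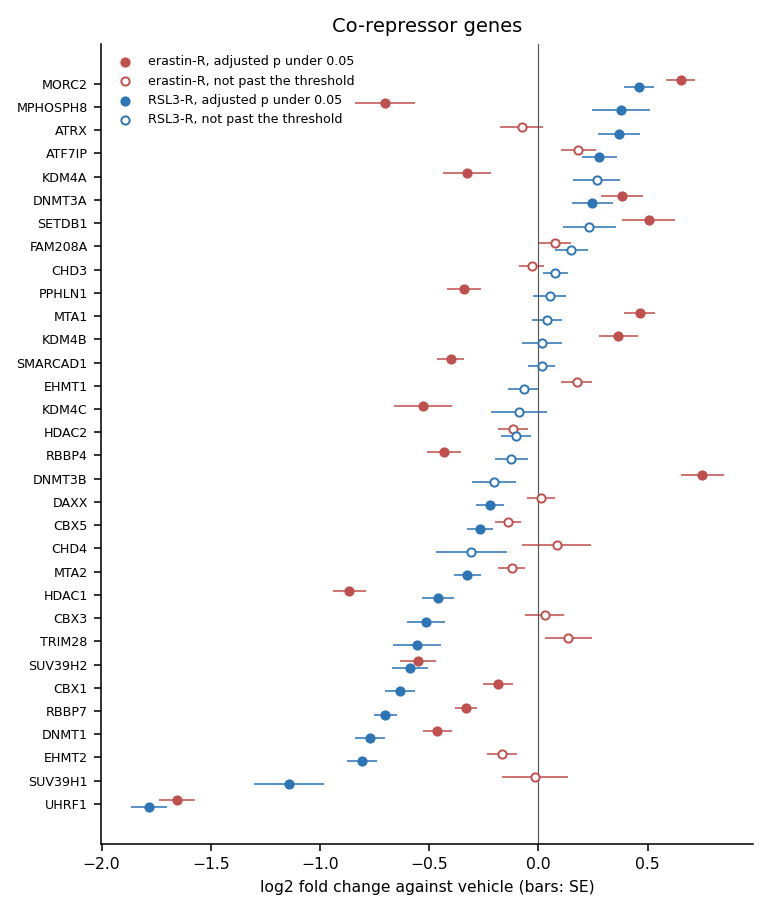
Log2 fold change against vehicle of 32 co-repressor and other chromatin genes, in erastin-R and RSL3-R. Bars are standard errors, and filled points had an adjusted p under 0.05. UHRF1 is the lowest in both groups. MPHOSPH8 passed on different sides of 0 in the 2 groups, while DNMT3B passed in erastin-R only. Other genes, among them TRIM28 and KDM4A, also lie on different sides of 0.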

How the data were processed

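Poly(A) mRNA of 9 libraries, 3 per group, was sequenced from MDA-MB-231 cells. The authors kept uniquely mapped reads in exons, and the submitters' processing notes name HISAT2 2.0.5 and featureCounts 1.5.0-p3. Whether counting used strand is not given in the sources used here, so genes with an antisense partner (68 of those tested) are uncertain. The deposited counts per gene are raw read counts, and the deposited FPKM values are counts scaled by the authors to gene length and depth. Gene coordinates in the files equal those of GENCODE 29 (GRCh38) for 58724 of 58735 genes. FPKM was used only to rank genes and to describe the levels of genes and line markers, not for fold changes.

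Counts were tested with edgeR 4.0.16 (R 4.3.3): genes with 10 or more counts in at least 3 libraries, TMM factors, 1 quasi-likelihood model of all 9 libraries without covariates, and Benjamini-Hochberg adjustment over all 16330 genes, called at an adjusted p under 0.05. This differs from the study's own tool for fold changes. Errors are standard errors of the log2 fold change. The common dispersion corresponded to a coefficient of variation of 8.56% between libraries. Totals of 15405102 to 17273464 counts leave genes under 1 CPM with few reads, and counting error limits these most. Alternatives used DESeq2 1.42.0, limma 3.58.1 with quantile normalization, other filters, RLE factors, a replicate block, fits of only 2 groups, removal of the GC and length trend, and each library left out. The trend was fitted with mgcv 1.9.3 on mean log2 CPM, GC content of the longest transcript and log2 length. Scripts were tested on simulated data.

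Fingers, KRAB and SCAN boxes were found by letter patterns in translated GENCODE 29 coding sequences, since no RefSeq protein table was used here, and divergent boxes may be missed. Named genes were, in each comparison, the 4 highest and 4 lowest log2 fold changes among called genes whose libraries did not overlap, the 5 with the highest mean FPKM, and genes with a described role. The co-repressor and chromatin genes named were those called with a log2 fold change of at least 0.5 in size. Some of them are given in both drug groups, also where 1 change was smaller. The genes, lists, features and printed sequences were chosen with earlier results of these data known, so lists are given as counts and medians without a test of their own, to be read against the shares of all genes in the same comparison. Leaving out each library for the co-repressor and chromatin genes was added after seeing the data.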

Additional observations from a re-analysis of the deposited data

Results flagged for a closer look

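Of the 211 genes, 2 (0.948%) passed the test in opposite directions in the 2 drug groups and also passed it between them, as did 637 of all 16330 genes tested (3.9%). They are named here after their values were seen, and both lie in group 15. ZNF577 measured 9.05, 7.22 and 7.82 CPM in vehicle, 5.23, 5.78 and 5.82 in erastin-R and 12.7, 11.3 and 12.4 in RSL3-R, with log2 fold changes of -0.52 ± 0.13 (adjusted p = 0.00483, edgeR) and 0.59 ± 0.12 (adjusted p = 0.00138) against vehicle and a difference between the drugs of 1.11 ± 0.13 (adjusted p = 1.15e-05). ZNF528 measured 39.6, 35.9 and 36.7 CPM in vehicle, 22.4, 23.4 and 21.0 in erastin-R and 53.8, 42.6 and 44.8 in RSL3-R, with -0.75 ± 0.10 (adjusted p = 1.87e-05, edgeR) and 0.33 ± 0.09 (adjusted p = 0.00915), and a difference of 1.08 ± 0.10 (adjusted p = 9.78e-07). ZNF577 overlaps exons of AC074141.1 and the locus of ZNF649 on the same strand. No libraries of different groups overlapped for either gene. Both comparisons with vehicle use the same vehicle libraries.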

How the results depend on the processing

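The lean in erastin-R kept its direction under all 17 refits and so did the difference between the drugs. Leaving out 1 library at a time gave 72 to 97 lower and 25 to 34 higher genes in erastin-R (median -0.35 to -0.22), 23 to 37 lower and 37 to 60 higher in RSL3-R (median 0.04 to 0.10), and 15 to 21 lower and 68 to 109 higher between the drugs (median 0.27 to 0.42). The extremes of -0.35 and 0.42 came without erastin-R replicate 1. The other refits gave 77 to 84 lower and 28 to 36 higher in erastin-R. Removing the GC and length trend brought the median between the drugs to 0.25. Requiring 2-fold with an adjusted or an unadjusted p left 23 lower and 4 higher in erastin-R and 4 and 4 in RSL3-R. Between the drugs it left 2 lower, and 18 higher by adjusted or 20 by unadjusted p. Among the named genes 1594 values kept their side of the threshold, 55 lost and 33 gained it. ZNF146 in erastin-R was -0.16 without erastin-R replicate 1 and 0.13 without replicate 3, and reached 0.15 over all alternatives. For the named co-repressor and chromatin genes, with each library left out, 404 values kept their side of the threshold, 18 lost and 10 gained it. A replicate block gave 79 lower and 30 higher in erastin-R, 33 and 45 in RSL3-R, and 17 and 80 between the drugs. Same-numbered libraries did not deviate together (mean correlation -0.0057, against 0.0029 for different numbers), so the numbers were not taken as pairs. Genes under 1 CPM are limited by depth.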
